A study of Mus musculus with 12 samples.

Results

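The genes examined encode the paired Ig-like type 2 receptors (*Pilra*, *Pilrb1* and *Pilrb2*), sialic acid-binding Ig-like lectins (*Siglece*, *Siglec1* and *Cd33*), and Ig-like receptors of myeloid cells (*Sirpa*, *Pirb* and *Lilrb4a*). These 9 symbols were chosen by receptor family with earlier results of the same data known, and their Ensembl identifiers were looked up among the 48526 genes of the count table. A row was found for 8 of the 9, and all 8 had enough counts to be tested. *Pilra* and *Pilrb1* had been selected on their values in IL-4 against untreated cells, and *Pilra* and *Siglece* for the interaction of IL-4 with Wnt3a. Values of the 8 genes in IL-4 against untreated cells, and of *Pilra* and *Siglece* in the comparison that enters the interaction, are therefore given as a description with no test. The other genes were tested in that last comparison, but their values were known at the choice, so these tests too are a description.

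Bone marrow-derived macrophages (BMDMs) are macrophages grown in culture from whole bone marrow, here with macrophage colony-stimulating factor (mCSF) until day 7. All came from 3 female C57Bl/6J mice and carried no genetic change according to the labels. From each mouse, some cells stayed untreated and others received 100 ng/mL Wnt3a (a secreted ligand that activates Wnt signaling), 100 pg/mL IL-4 (a cytokine of type 2 immunity), or both, for 16 hr. RNA-seq asked how Wnt3a and IL-4, alone and together, change the transcripts of these cells.

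Within a mouse, the columns for Wnt3a and for Wnt3a+IL-4 were not separate libraries. In each of the 3 mice, 0 of 48526 genes had a Wnt3a count outside 1 to 2 times the Wnt3a+IL-4 count. The columns were therefore solved for the parts they share. Subtracting the Wnt3a+IL-4 count from the Wnt3a count gave the difference, and subtracting the Wnt3a count from 2 times the Wnt3a+IL-4 count gave the remainder. Both parts come from cells given Wnt3a, the labels do not say which of them also had IL-4, and no choice was made from the values. This gave 12 libraries in 4 groups of 3 (untreated, IL-4, difference and remainder), with 13342492 to 17453377 counts each. Levels are given as CPM, the counts scaled to library size with TMM factors. A gene was called higher or lower when the adjusted p of the edgeR quasi-likelihood test, taken over all 12421 genes tested, was under 0.05.

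Paired receptors are families in which close relatives bind similar ligands but send opposite signals. The inhibitory member carries tyrosine motifs in its cytoplasmic tail that recruit the phosphatases encoded by *Ptpn6* and *Ptpn11*. The activating member has a short tail and signals through an adaptor such as that encoded by *Tyrobp* or *Fcer1g*. In macrophages these receptors read sialic acids, CD47 or MHC class I molecules on neighboring cells and adjust phagocytosis and cytokine release. Siglecs bind sialic acids and most of them are inhibitory.

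*Pilra* encodes the inhibitory receptor of the Pilr family, and *Pilrb1* and *Pilrb2* encode activating relatives. The 3 genes lie side by side on the minus strand of chromosome 5 (mm10). *Pilra* (ENSMUSG00000046245) runs from 137821952 to 137836281, *Pilrb1* (ENSMUSG00000066684) from 137852147 to 137858106, and *Pilrb2* (ENSMUSG00000066682) from 137865827 to 137871815. The bases just upstream of each annotated start are printed because the 3 genes share nearly all of the 193 nearest the start. Whether these bases bear on the levels was not tested. They come from RefSeq (GRCm38.p6, the mm10 build), read 5′ to 3′ on the minus strand at chr5:137836282-137836528, chr5:137858107-137858299 and chr5:137871816-137872008. Capitals mark a run of 86 bases that is identical in all 3.
Pilra: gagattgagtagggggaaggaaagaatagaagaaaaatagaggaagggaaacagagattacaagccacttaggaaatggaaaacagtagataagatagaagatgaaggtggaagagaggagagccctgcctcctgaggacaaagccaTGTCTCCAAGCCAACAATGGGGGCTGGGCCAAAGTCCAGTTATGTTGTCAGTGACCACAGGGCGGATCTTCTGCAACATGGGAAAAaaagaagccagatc
Pilrb1: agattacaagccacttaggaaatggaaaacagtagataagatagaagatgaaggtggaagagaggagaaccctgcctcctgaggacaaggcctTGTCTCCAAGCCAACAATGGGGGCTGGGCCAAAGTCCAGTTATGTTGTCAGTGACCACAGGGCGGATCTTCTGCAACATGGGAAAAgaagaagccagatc
Pilrb2: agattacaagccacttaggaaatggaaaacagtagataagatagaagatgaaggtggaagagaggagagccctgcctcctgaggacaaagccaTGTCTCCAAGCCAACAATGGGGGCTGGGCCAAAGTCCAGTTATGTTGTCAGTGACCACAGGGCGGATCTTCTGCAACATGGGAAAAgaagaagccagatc

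Over the 193 bases nearest the start, *Pilra* and *Pilrb2* differed at 1 position (99.5% identity), *Pilrb1* and *Pilrb2* at 3 (98.4%), and *Pilra* and *Pilrb1* at 4 (97.9%). The letters TTC and GAA with 4 or with 3 bases between them (spacings bound by STAT factors) and ATCAAAG (a core bound by TCF/LEF factors) were searched on both strands of the RefSeq windows, which run from 250 bases before to 50 bases after the start. Windows of 6 of the genes were in the table, and 0 of these 6 held any of the 3 motifs. The motifs occurred in 6.95%, 8.3% and 3.73% of all 32851 promoter windows, respectively. The absence of these letters from these windows says nothing about the factors.

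Of the 8 genes, 7 were higher and 1 was lower in the difference than in untreated cells. Over all genes tested, 11.8% were called higher and 11.4% lower in this comparison. In the remainder 1 was higher, 3 were lower and 4 were not called, beside 13.6% higher and 11.7% lower over all genes. The untreated libraries entered the choice of *Pilra*, *Pilrb1* and *Siglece*, so nothing is read from these counts against untreated cells. In the remainder against the difference, 0 of the 6 genes tested were higher by the edgeR test and 4 were lower, beside 2.87% higher and 2.38% lower over all genes. *Siglec1* was higher there at an unadjusted p under 0.05 (the count at that level was 1), and 0 were called higher by DESeq2. As the genes were chosen with the values of the remainder against the difference known, nothing is read from its counts either. Without mouse 3, 5 were higher and 0 lower in the difference than in untreated cells, beside 677 and 550 of all 12421 genes. That fit gave 1 higher and 0 lower in the remainder against untreated cells, beside 810 and 578. It gave 1 (*Pilrb1*) lower in the remainder than in the difference, beside 29 of all genes. Without mouse 1, 6 were higher and 1 lower in the difference, beside 1067 and 1047 of all genes. Without mouse 2, 5 were higher and 1 lower, beside 1003 and 939. The median log2 fold change of the 8 genes was 0.72 in the difference and -0.12 in the remainder against untreated cells, where the medians over all genes were -0.01 and -0.02. With total counts alone as the scaling, these last medians moved to -0.10 and -0.13, and the genes called changed from 1462 higher and 1422 lower to 1131 and 2238 in the difference and from 1687 and 1450 to 1293 and 2342 in the remainder. As the RNA is from whole cultures, fewer cells of a type and less RNA per cell cannot be told apart.

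**Figure D1:**
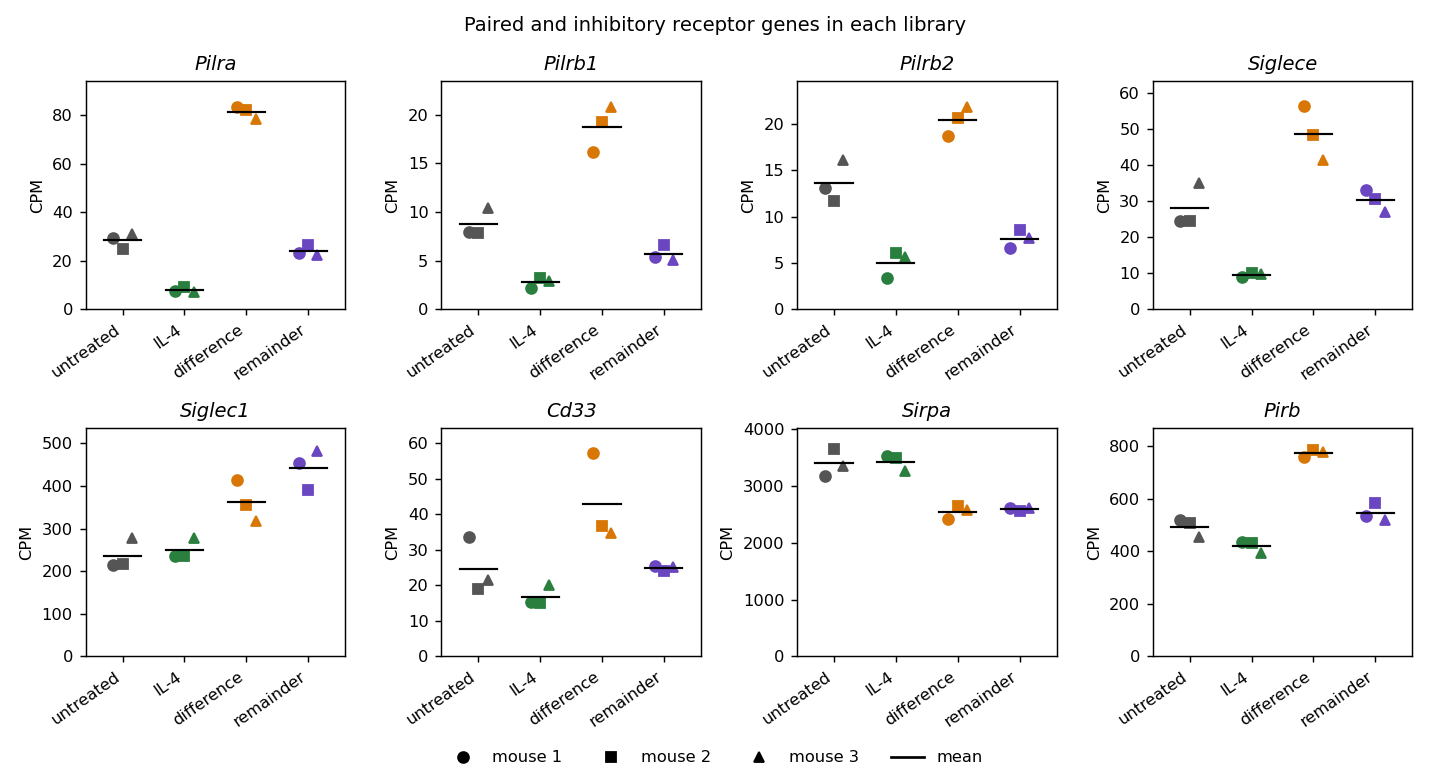
Level of each of the 8 genes (y axis, CPM, from 0) in the 12 libraries, by group (x axis); symbols mark the mouse and lines the mean of 3. For *Pilra* the difference libraries lie above all others, and the means are those in the text (28.4, 8.03, 81.4 and 24.1 CPM).

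*Pilra* had 29.5, 24.7 and 31.0 CPM in the untreated libraries of mouse 1, 2 and 3. It had 7.67, 9.20 and 7.22 CPM with IL-4, 83.4, 82.2 and 78.4 CPM in the difference and 23.1, 26.7 and 22.5 CPM in the remainder. The difference libraries lay far above all others and the IL-4 libraries below all others, while the remainder overlapped the untreated libraries. The means were 28.4 ± 3.31 untreated, 8.03 ± 1.04 with IL-4, 81.4 ± 2.59 in the difference and 24.1 ± 2.30 in the remainder (SD, n = 3 each). As a description, *Pilra* rose 2.86-fold in the difference against untreated cells (log2 fold change 1.52, SE 0.11). In the remainder against untreated cells its log2 fold change was -0.24 (not called, 95% interval -0.48 to 0.0036). That last value was called with total counts alone as the scaling (-0.35) and without mouse 2 (-0.41). It was also called for the counts of the 3 Pilr genes added together (-0.44).

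*Pilrb1* had 7.95, 7.85 and 10.4 CPM untreated, 2.16, 3.26 and 2.96 CPM with IL-4, 16.2, 19.3 and 20.8 CPM in the difference and 5.34, 6.64 and 5.06 CPM in the remainder. No group overlapped another, and the order from highest was difference, untreated, remainder and IL-4. As a description, *Pilrb1* rose 2.15-fold in the difference against untreated cells (log2 fold change 1.10, SE 0.17). It fell by 0.62 on the log2 scale in the remainder against untreated cells (SE 0.18). The fall in the remainder was not called without mouse 3 (log2 fold change -0.40).

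*Pilrb2* had 13.1, 11.7 and 16.1 CPM untreated, 3.36, 6.07 and 5.70 CPM with IL-4, 18.7, 20.6 and 21.9 CPM in the difference and 6.65, 8.54 and 7.75 CPM in the remainder. It showed the same order as *Pilrb1*, with no overlap between groups. It rose in the difference (log2 fold change 0.58, SE 0.18, edgeR adjusted p = 0.029) and fell by 0.83 on the log2 scale in the remainder (SE 0.19, edgeR adjusted p = 0.0044). The rise was not called with total counts alone (0.49, edgeR adjusted p = 0.076), without mouse 2 (0.46, edgeR adjusted p = 0.16) or without mouse 3 (0.67, edgeR adjusted p = 0.13). The fall was not called without mouse 3 (-0.71, edgeR adjusted p = 0.13).

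Between the Wnt3a-treated parts, *Pilrb1* was 3.29-fold lower in the remainder than in the difference (log2 fold change -1.72, SE 0.17, edgeR adjusted p = 4.6e-05). *Pilrb2* was 2.67-fold lower (-1.41, SE 0.19, edgeR adjusted p = 0.00038, and 0.0503 without mouse 3). *Pilra*, given with no test, was 3.37-fold lower (-1.75, SE 0.11). All 3 genes were lower in the remainder in each of the 3 mice. They were chosen with these values known, so the tests between the parts are a description.

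**Figure D2:**
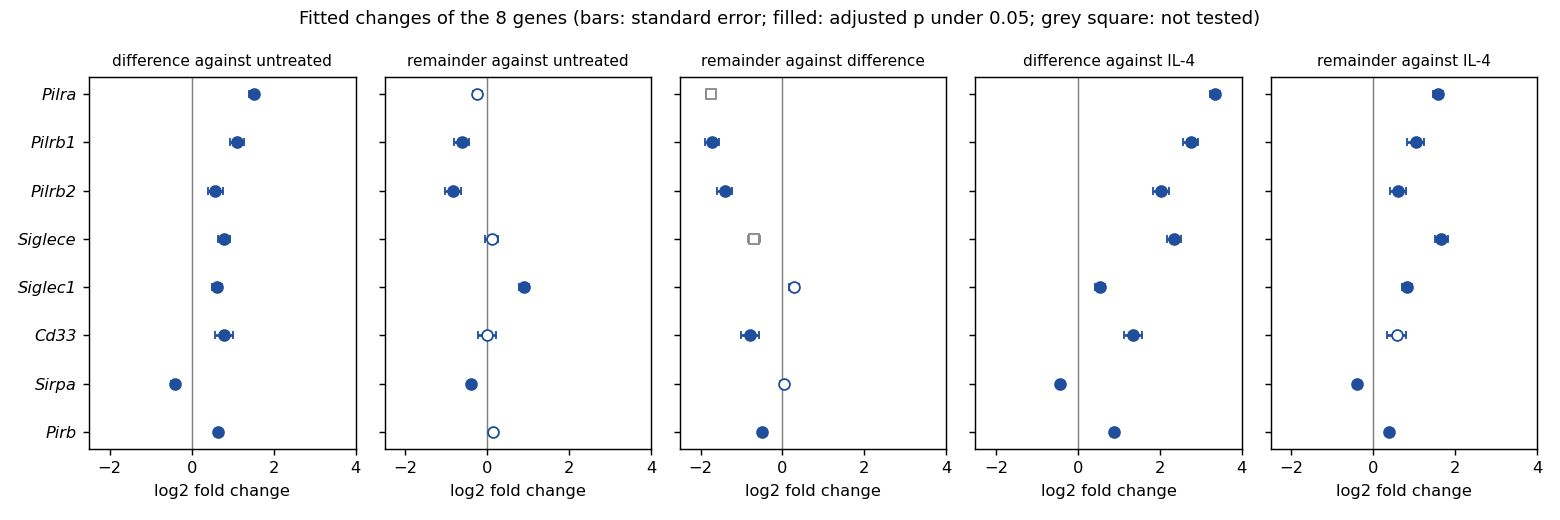
Fitted log2 fold change (x axis) of each gene (y axis) in 5 comparisons, with bars for the standard error; filled circles were called, open circles were not, and grey squares were not tested. In the difference against untreated cells all 8 circles are filled, 7 to the right of 0 and *Sirpa* to the left. Over all genes, 11.8% were called higher there and 11.4% lower, and nothing is read from these counts.

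The Pilr genes have near-identical stretches, which limits how their counts can be split. Of the 50-base stretches of its transcripts, 32.2% of those of *Pilrb1* and 30.6% of those of *Pilrb2* also occur in other genes, most often in each other (26% for both). For *Pilra* the share was 20.8%, and by gene 13.2% also occur in *Zcwpw1*, 4.4% in *Pilrb1* and 3.83% in *Pilrb2*. *Zcwpw1*, on the opposite strand, overlaps 15.1% of the exon bases of *Pilra*, and whether strand was used in counting is not given in the sources used here. *Zcwpw1* itself was at 2.41 CPM untreated and 2.37 CPM in the difference, below *Pilra* in every group.

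Within the Pilr family, the share of counts on *Pilra* was 56.0% ± 2.25 untreated, 51.1% ± 6.49 with IL-4, 67.5% ± 2.87 in the difference and 64.4% ± 1.22 in the remainder (SD, n = 3 each). The 95% Wilson intervals of single libraries, which cover counting error only, ran from 39.0% to 64.5% with IL-4, where 220 to 290 counts lay behind each share, and from 62.4% to 72.4% in the difference, with 1666 to 2067 counts. The share was 11.5 percentage points higher in the difference and 8.39 points higher in the remainder than in untreated cells. Libraries overlapped in neither comparison. The remainder minus the difference was -3.09 points, and these libraries overlapped. As *Pilra* was chosen on these groups, the shares are a description and no p is given. With 3 libraries against 3, the exact permutation test also cannot give a two-sided p under 0.1. *Pilrb1* made up 39.1% ± 1.15 of the counts on both activating genes in untreated cells and 47.8% ± 1.24 in the difference (SD, n = 3 each).

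**Figure D3:**
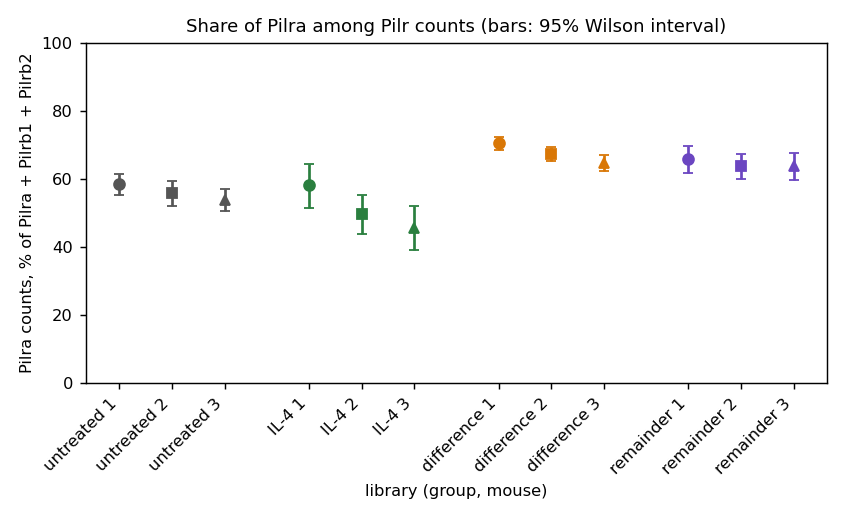
Share of *Pilra* among the counts of the 3 Pilr genes (y axis, %, 0 to 100) in each of the 12 libraries (x axis), with 95% Wilson intervals. Difference libraries lie at 64.8% to 70.5%, above the untreated libraries at 53.9% to 58.4%.

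*Siglece* (ENSMUSG00000030474, chromosome 7 from 43651070 to 43660161, minus strand) encodes the main inhibitory Siglec of mouse neutrophils and macrophages. It had 24.6, 24.4 and 35.1 CPM untreated, 8.93, 10.0 and 9.74 CPM with IL-4, 56.3, 48.3 and 41.4 CPM in the difference and 33.2, 30.7 and 26.9 CPM in the remainder. As for *Pilra*, the IL-4 libraries lay below all others, the difference libraries above all others, and the remainder overlapped the untreated libraries. As a description, *Siglece* rose 1.74-fold in the difference against untreated cells (log2 fold change 0.80, SE 0.15). In the remainder against untreated cells the log2 fold change was 0.11 (not called, 95% interval -0.21 to 0.43), and it turned to -0.051 without mouse 1. Given with no test, it was 1.61-fold lower in the remainder than in the difference (-0.68, SE 0.15), and lower in each of the 3 mice.

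*Siglec1* (ENSMUSG00000027322, chromosome 2 from 131069220 to 131086765, minus strand) encodes sialoadhesin, an adhesion receptor that lacks the inhibitory motifs of other Siglecs. It had 215, 216 and 279 CPM untreated, 235, 236 and 277 CPM with IL-4, 413, 356 and 318 CPM in the difference and 455, 390 and 483 CPM in the remainder. Both Wnt3a-treated parts lay above the untreated and the IL-4 libraries, which overlapped each other. *Siglec1* rose 1.53-fold in the difference (log2 fold change 0.62, SE 0.13, edgeR adjusted p = 0.0026) and 1.87-fold in the remainder (0.90, SE 0.13, edgeR adjusted p = 0.0001) against untreated cells. Without mouse 1 the rise in the difference was not called (0.45, edgeR adjusted p = 0.071). Remainder and difference overlapped (log2 fold change 0.29, edgeR adjusted p = 0.23, 95% interval 0.02 to 0.55). With genes kept at 1 count or more this value was called (0.29, edgeR adjusted p = 0.048). *Siglec1* was the gene with the highest change in the remainder against untreated cells among the 8 and the only one called higher there.

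*Cd33* (ENSMUSG00000004609, chromosome 7 from 43524216 to 43544428, minus strand) encodes a small Siglec of myeloid cells. It had 33.5, 19.1 and 21.6 CPM untreated, 15.5, 14.95 and 20.2 CPM with IL-4, 57.4, 36.7 and 34.7 CPM in the difference and 25.5, 24.0 and 25.2 CPM in the remainder. Mouse 1 was highest of the 3 in both untreated cells and the difference. *Cd33* rose 1.73-fold in the difference (log2 fold change 0.79, SE 0.21, edgeR adjusted p = 0.015), and this was not called with total counts alone (0.70, edgeR adjusted p = 0.051), without mouse 2 (0.72, edgeR adjusted p = 0.057) or without mouse 3 (0.83, edgeR adjusted p = 0.091). In the remainder against untreated cells its log2 fold change was 0.01 (edgeR adjusted p = 0.99, 95% interval -0.46 to 0.47). *Cd33* was 1.72-fold lower in the remainder than in the difference (-0.79, SE 0.21, edgeR adjusted p = 0.049). Of its alternatives, 6 ended that call, with an edgeR adjusted p of 0.0505 to 0.25 over the 5 that used the parts, among them the fits without mouse 1 (-0.54, edgeR adjusted p = 0.11) and without mouse 3 (-0.93, edgeR adjusted p = 0.25).

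*Sirpa* (ENSMUSG00000037902, chromosome 2 from 129592835 to 129632228, plus strand) encodes the inhibitory receptor for CD47. It had 3172, 3658 and 3359 CPM untreated, 3520.2, 3492 and 3259.8 CPM with IL-4, 2424, 2653 and 2571 CPM in the difference and 2613, 2564 and 2616 CPM in the remainder. All 6 Wnt3a-treated libraries lay below all 6 others. *Sirpa* fell by 0.41 on the log2 scale in the difference (SE 0.08, edgeR adjusted p = 0.0019) and by 0.39 in the remainder (SE 0.08, edgeR adjusted p = 0.0027) against untreated cells. Neither fall was called without mouse 3 (-0.43, edgeR adjusted p = 0.075, and -0.40, edgeR adjusted p = 0.090). The parts overlapped each other (log2 fold change 0.03, edgeR adjusted p = 0.9, 95% interval -0.15 to 0.20).

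*Pirb* (ENSMUSG00000058818, chromosome 7 from 3711409 to 3720391, minus strand) encodes an inhibitory receptor for MHC class I molecules. It had 520.3, 508 and 453 CPM untreated, 437, 430.3 and 395 CPM with IL-4, 758, 785 and 780.2 CPM in the difference and 533, 585 and 521 CPM in the remainder. The difference libraries lay above all others and the IL-4 libraries below all others. *Pirb* rose 1.57-fold in the difference (log2 fold change 0.65, SE 0.08, edgeR adjusted p = 3.6e-05). In the remainder against untreated cells the libraries did not overlap, but the log2 fold change of 0.15 was not called (edgeR adjusted p = 0.2, 95% interval -0.02 to 0.31). *Pirb* was 1.42-fold lower in the remainder than in the difference (-0.50, SE 0.08, edgeR adjusted p = 0.0017), and this was not called without mouse 3 (-0.46, edgeR adjusted p = 0.13). Stretches of 50 bases found elsewhere too made up 34% of its transcripts, chiefly *Gm14548* (17.7%) and *Pira2* (16.8%), so its counts are uncertain to that extent.

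*Lilrb4a*, which encodes an inhibitory receptor of the LILRB family, had no row under its identifier (ENSMUSG00000112148), and no value is given for it. A row under ENSMUSG00000062593 (*Gm49339* in the GENCODE annotation, chromosome 10 from 51480612 to 51496613) spans both *Lilr4b* and *Lilrb4a*, and 95.2% of its 50-base stretches also occur in *Lilrb4a* and 38.4% in *Lilr4b*. *Gm49339* had means of 335, 336, 343 and 282 CPM in the untreated, IL-4, difference and remainder groups, which all overlapped.

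With IL-4 alone, the libraries of 5 of the 8 genes (*Pilra*, *Pilrb1*, *Pilrb2*, *Siglece* and *Pirb*) lay below all untreated libraries, which was so for 9.02% of all genes. These values had been used to choose members, and nothing is read from the count. The log2 fold changes, with no test, were -1.82 for *Pilra*, -1.65 for *Pilrb1*, -1.44 for *Pilrb2*, -1.55 for *Siglece* and -0.23 for *Pirb*. *Cd33* was at -0.56, and at -0.21 without mouse 1. *Siglec1* was at 0.08 and *Sirpa* at 0.01, the last at -0.041 with total counts alone and -0.048 without mouse 1.

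IL-4 against untreated and remainder against difference have no library in common. As the genes were chosen with these values known, both are given side by side as a description. For *Siglec1* and *Sirpa* the values in both were small, and the direction of *Sirpa* turned in the alternatives named above and, in the remainder against the difference, without mouse 1 (-0.013). Within mouse 1, 2 and 3, *Pilra* had log2 ratios of -1.93, -1.41 and -2.09 with IL-4 alone and of -1.85, -1.62 and -1.80 for the remainder against the difference. *Siglece* had ratios of -1.45, -1.27 and -1.84 with IL-4 alone and of -0.76, -0.65 and -0.62 between the parts. *Pirb* had ratios of -0.25, -0.24 and -0.20 with IL-4 alone and of -0.51, -0.42 and -0.58 between the parts. The ratios of *Pilra* thus overlapped between both comparisons, while those of *Siglece* were nearer 0 and those of *Pirb* farther from 0 between the parts, which was not tested.

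**Figure D4:**
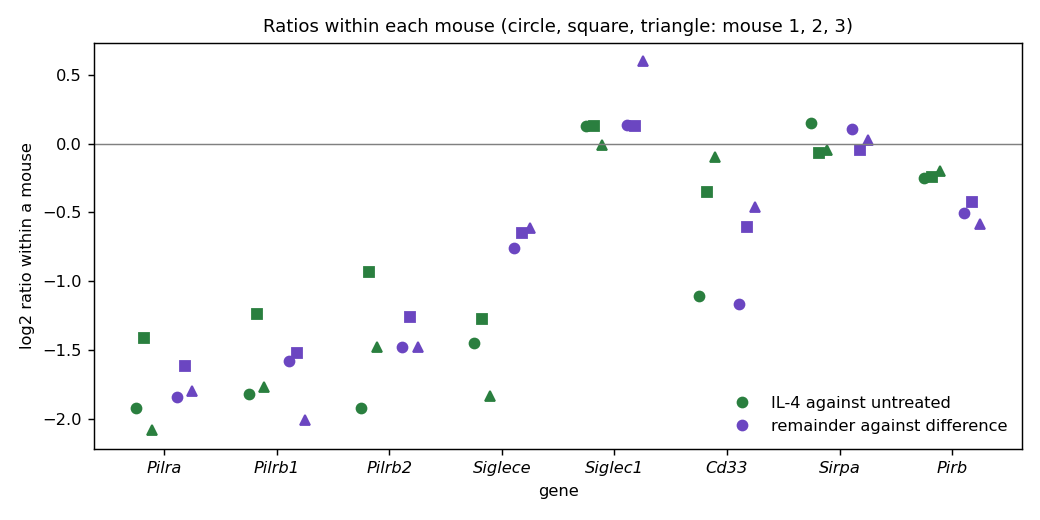
Log2 ratio within each mouse (y axis) for the 8 genes (x axis), for IL-4 against untreated (green) and remainder against difference (purple); symbols mark the mouse. For *Pilra* the points of both comparisons overlap and lie between -2.09 and -1.41.

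The IL-4 libraries, whose values were used to choose *Pilra* and *Pilrb1*, are the baseline of the next comparisons, so nothing is read from their counts of genes called. Set against IL-4 alone, 7 of the 8 genes were higher and 1 was lower in the difference, beside 10.0% higher and 10.3% lower over all genes. These comparisons share the IL-4 libraries with each other, and the comparisons with untreated cells share the untreated libraries. The values are a description with calls that enter the count, and an adjusted p is given only where a call was absent or changed. The log2 fold change was 3.34 (10.1-fold) for *Pilra*. It was 2.75 for *Pilrb1* and 2.35 for *Siglece*. *Pilrb2* (2.02), *Cd33* (1.35), *Pirb* (0.88) and *Siglec1* (0.54) were higher, and *Sirpa* was lower (-0.43). *Siglec1* was not called without mouse 1 (0.39, edgeR adjusted p = 0.11), and *Sirpa* was not called without mouse 3 (-0.47, edgeR adjusted p = 0.057). Between the remainder and IL-4 alone, 6 were higher and 1 was lower, beside 10.6% and 9.67% over all genes. Again as a description, the values were 1.66 (SE 0.16) for *Siglece*, 1.58 (SE 0.12) for *Pilra* and 1.03 for *Pilrb1*. *Siglec1* (0.83), *Pilrb2* (0.61) and *Pirb* (0.38) were higher, and *Sirpa* was lower (-0.40). *Cd33* was not called (0.57, edgeR adjusted p = 0.089, 95% interval 0.09 to 1.04), and was called with the DESeq2 test (adjusted p = 0.049). *Pilrb2* was not called without any of the 3 mice in turn (edgeR adjusted p from 0.065 to 0.19), and *Sirpa* (edgeR adjusted p = 0.080) and *Pirb* (edgeR adjusted p = 0.079) were not called without mouse 3.

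Levels between genes were compared per kilobase of merged exons. In untreated cells *Sirpa* was highest at 692 CPM per kilobase, followed by *Pirb* (110.5), *Siglec1* (33.1), *Siglece* (15.2), *Pilra* (9.20), *Pilrb2* (6.96), *Pilrb1* (4.46) and *Cd33* (3.19), a span of 217-fold. The libraries of *Pilra* and *Pilrb2* and those of *Pilrb1* and *Cd33* overlapped, so their order in untreated cells is within the spread. *Sirpa*, *Pirb* and *Siglec1* held the 3 highest places in this order in every group. In the difference *Pilra* and *Siglece* were both at 26.3 CPM per kilobase and overlapped, and so did *Pilrb2* (10.4) and *Pilrb1* (9.59). In the remainder *Siglece* (16.4) lay above *Pilra* (7.80) again. With the longest transcript as the length, *Cd33* and *Pilrb2* changed places with IL-4 and in the remainder.

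**Figure D5:**
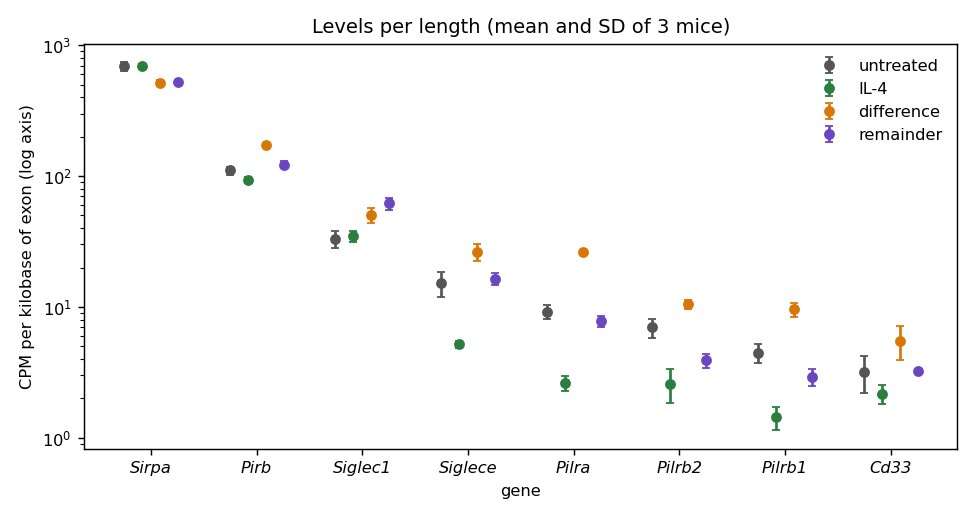
Level per kilobase of merged exons (y axis, CPM per kilobase, log axis) of the 8 genes (x axis) in the 4 groups, as mean and SD of 3 mice. *Sirpa* is highest at 692 in untreated cells, and *Pilra* and *Siglece* meet at 26.3 in the difference.

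Genes whose levels followed each member most closely over the 12 libraries were named by Pearson's r of log2 CPM, as a description over libraries that share mice and treatments. *Pilra* was nearest to *Cd302* (0.981), *Clec4d* (0.977), both C-type lectins, and *Pilrb1* (0.976). *Pilrb1* was nearest to *Pilrb2* (0.977), *Pilra* and *Rab27a* (0.975). *Pilrb2* was nearest to *Pilrb1*, *Prkar2b* (0.965) and *Slco3a1* (0.938). *Siglece* was nearest to the purinergic receptor gene *P2ry13* (0.956), *Pilra* (0.951) and the scavenger receptor gene *Marco* (0.949). *Pirb* was nearest to *Smim3* (0.966), *Cd14* (0.957) and *Cd302* (0.957). *Siglec1* was nearest to *Tcp11l1* (0.969), *H2-Oa* (0.963) and *Pdp2* (0.957), *Cd33* to *Gm6548* (0.930), *Gpr141* (0.919) and *D16Ertd472e* (0.919), and *Sirpa* to *Angptl4* (0.987), *Abhd12* (0.987) and *Lrrc20* (0.982). None of these last 9 genes is a member. Between members, *Sirpa* ran opposite to *Siglec1* (r = -0.880).

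Of 17 other members of these families, 12 had a row and 8 were tested. In the difference against untreated cells 6 of the 8 were higher and 0 lower by edgeR (0 lower also at an unadjusted p under 0.05), with a median log2 fold change of 0.55, beside 11.8% higher and 11.4% lower over all genes. Without mouse 1, 2 or 3, 4, 3 and 4 of the family relatives were called, all higher. Of all 12421 genes, 1067, 1003 and 677 were higher in these fits. The activating relatives of *Sirpa* rose while *Sirpa* fell. *Sirpb1c* rose from 8.76 ± 1.74 to 29.6 ± 2.35 CPM (log2 fold change 1.75, edgeR adjusted p = 3.8e-06) and, chosen after their values were seen, *Sirpb1a* rose by 1.55 (edgeR adjusted p = 0.00082) and *Sirpb1b* by 1.48 (edgeR adjusted p = 1.3e-05). Between 40.4% and 58% of the 50-base stretches of these 3 genes also occur in other genes, mostly in each other. *Pira2*, also chosen after its values were seen, encodes an activating relative of *Pirb* and rose by 0.50 (edgeR adjusted p = 0.0054), but 93% of its stretches also occur elsewhere, and it was not called without mouse 1 or mouse 2. *Lilra6* had the lowest called change (0.43, edgeR adjusted p = 0.018) and was not called without any of the 3 mice in turn. Against untreated cells, 3 were higher in the remainder and 0 lower by edgeR (0 lower also at an unadjusted p under 0.05), with a median of 0.42, beside 13.6% higher and 11.7% lower over all genes. *Siglecf*, an inhibitory Siglec best known from eosinophils, rose from 0.478 to 1.62 CPM (log2 fold change 1.74, edgeR adjusted p = 0.0041), and *Sirpb1b* had the lowest called change (0.85, edgeR adjusted p = 0.0015). *Siglecf* was at 2.79 ± 1.13 CPM with IL-4 and 0.627 ± 0.22 CPM in the difference.

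Of 12 adaptors and kinases of these receptors, 2 were higher and 2 lower in the difference, and 2 higher and 3 lower in the remainder, against untreated cells (median log2 fold changes 0.07 and -0.08). Over all genes, 11.8% were higher and 11.4% lower in the difference and 13.6% and 11.7% in the remainder. *Tyrobp*, the adaptor of *Pilrb1*, *Pilrb2* and the Sirpb1 receptors, was at 1742 CPM untreated and 1602 CPM in the difference (log2 fold change -0.12, edgeR adjusted p = 0.47). *Fcer1g*, the adaptor of *Pira2*, had a log2 fold change of 0.15 (edgeR adjusted p = 0.21). *Src*, a kinase that can phosphorylate receptor tails, rose most in the difference (2.53, edgeR adjusted p = 2.2e-07) and in the remainder (2.69, edgeR adjusted p = 9e-08). *Hcst* (-0.66, edgeR adjusted p = 0.018) fell in the difference, and was not called without mouse 2. *Lyn*, a kinase of inhibitory receptor motifs, fell most in the remainder (-1.06, edgeR adjusted p = 1.1e-07) and also fell in the difference (-0.56, edgeR adjusted p = 5.6e-05).

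Of 11 phosphatases and docking proteins, 0 were higher by edgeR in either part, beside 11.8% and 13.6% higher over all genes. At an unadjusted p under 0.05, 0 and 1 were higher in the difference and the remainder. By edgeR 2 and 4 were lower (medians -0.06 and -0.08), beside 11.4% and 11.7% lower over all genes. Without mouse 3, 1 was lower in each part, beside 550 and 578 of all 12421 genes. *Inppl1* fell in the difference (-0.63, edgeR adjusted p = 0.00022) and in the remainder (-0.56, edgeR adjusted p = 0.00053). *Dok2* (-0.44, edgeR adjusted p = 0.0037) fell in the difference. *Fyb* (-0.62, edgeR adjusted p = 0.0018) and *Inpp5d* (-0.28, edgeR adjusted p = 0.02) fell in the remainder. None of *Dok2*, *Fyb* and *Inpp5d* was called without mouse 3. Among 10 genes of protein ligands tested of 13 listed, 2 were higher and 2 lower in the difference, and 3 higher and 3 lower in the remainder (medians 0.06 and 0.0059), beside the all-gene shares of 11.8% and 11.4% and of 13.6% and 11.7%. *Pianp*, a ligand gene of PILRα, fell in both parts (-0.76, edgeR adjusted p = 0.011, and -0.92, edgeR adjusted p = 0.0028), neither of which was called without mouse 3. *B2m*, the light chain of the MHC class I ligands of *Pirb*, rose in the difference (0.90, edgeR adjusted p = 1.9e-05) and in the remainder (0.81, edgeR adjusted p = 4.5e-05). The fibronectin gene *Fn1* rose in the remainder (1.41, edgeR adjusted p = 0.0074).

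Of 13 genes of sialic acid synthesis and transfer tested, 1 was higher and 2 were lower in the difference and 3 were higher and 3 lower in the remainder (medians -0.18 and -0.12), beside 11.8% and 11.4%, and 13.6% and 11.7%, over all genes. Without mouse 3, 2 were called in each part, both lower, beside 550 and 578 of all 12421 genes lower. *St3gal1* (0.38, edgeR adjusted p = 0.008, not called without mouse 2 or mouse 3) and *St3gal5* (-0.97, edgeR adjusted p = 5.8e-05), both sialyltransferase genes, had the highest and lowest called changes in the difference. In the remainder these were *Nans* (0.53, edgeR adjusted p = 0.0055, not called without mouse 1 or mouse 3), which encodes a sialic acid synthase, and *St8sia4* (-1.58, edgeR adjusted p = 0.0007), a polysialyltransferase gene. *St3gal1* (0.31, edgeR adjusted p = 0.022) and *St3gal5* (-1.15, edgeR adjusted p = 1e-05) were also called in the remainder. Of 13 other inhibitory receptor genes tested of 15 listed, 5 were higher and 4 lower in the difference and 3 higher and 5 lower in the remainder (medians -0.11 and -0.16), beside the same shares over all genes. *Fcgr2b*, the inhibitory IgG receptor gene, rose most in both parts (45.5 CPM untreated, 215 CPM in the difference and 416 CPM in the remainder), and *Cd300a* fell most in both (693, 358 and 316 CPM).

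All 8 macrophage markers were present in every library, with summed levels of 45682 to 66592 CPM. Summed levels of 8 neutrophil markers were 49.4 to 67.1 CPM untreated, 63.3 to 78.5 CPM with IL-4, 34.7 to 54.8 CPM in the difference and 31.6 to 34.4 CPM in the remainder, and their part in the results was not tested. The 4 T cell markers each had 3 counts or fewer in every library, and the summed dendritic cell and eosinophil, basophil or mast cell lists stayed at or under 2.44 CPM. The 4 stromal markers summed to 5.57 to 30.7 CPM.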

How the data were processed

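RNA-seq covered BMDMs from 3 mice under 4 treatments. Single-end reads were trimmed by the authors (Trimmomatic 0.36) and aligned by STAR 2.6.0 to the mm10 genome, and raw counts per gene from HTSeq 0.11.1 were deposited, per the labels. Of the table's identifiers, 48058 of 48526 (99%) were paired with a symbol, 0 rows named no gene and 0 columns were left unused. The members and gene lists were chosen with earlier results of these data known. The difference and the remainder were solved for each mouse as in the results, and the lowest chi-square per degree of freedom between replicates was 3.678, so none was a copy of another.

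Genes reaching 10 counts in 3 libraries or more entered the test, run in edgeR 4.0.16 under R 4.3.3 (TMM scaling, quasi-likelihood test, all 12 libraries in 1 fit, no term for the mouse, Benjamini-Hochberg adjustment over all genes tested). An SE is the log2 fold change over the root of F, and an interval is the SE times the t quantile at the degrees of freedom of the fit. On simulated counts with 200 genes changed 4-fold in the difference against untreated comparison, 200 were recovered among 12421, with 8 false calls. The replicate number is the mouse, per the titles, so the samples are paired. Deviations from group means correlated from -0.365 to 0.409 over the 18 pairs of libraries of the same mouse, with 7 over 0.1.

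All members were described. From each list, the called genes with the highest and lowest change in the difference and in the remainder against untreated cells were named, and for each member the 3 genes with the highest Pearson's r among those with a mean of at least 1 CPM (log2 CPM with a prior count of 2). Positions, exon overlaps and stretches of 50 bases shared with other genes came from the GENCODE annotation of mm10, and promoters from RefSeq. Protein sequences were not analysed here. The B cell marker list is not reported here. Alternatives were DESeq2 (1.42.0), other scalings and filters, the mouse as a block, 2 groups alone, each mouse left out, stricter thresholds, the columns as labelled, Pilr counts added together, and the longest transcript as length.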

Additional observations from a re-analysis of the deposited data

Results flagged for a closer look

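For 4 genes the edgeR quasi-likelihood test of the remainder against the difference gave a call. The genes were chosen with these values known, so the calls and adjusted p values are a description. The log2 fold change was -1.72 for *Pilrb1* (edgeR adjusted p = 4.6e-05), -1.41 for *Pilrb2* (0.00038), -0.79 for *Cd33* (0.049) and -0.50 for *Pirb* (0.0017), each lower in the remainder in 3 of 3 mice. Against untreated cells, given as a description, *Pilrb1* and *Pilrb2* were higher in the difference and lower in the remainder. *Cd33* and *Pirb* were higher in the difference and not called in the remainder. The rises of *Pilrb2* and *Cd33* were not called with total counts alone, without mouse 2 or without mouse 3. Neither fall of *Pilrb1* and *Pilrb2* was called without mouse 3. In the remainder against the difference, only *Pilrb1* kept its call without mouse 3. The edgeR adjusted p there was 0.0503 for *Pilrb2*, 0.25 for *Cd33* and 0.13 for *Pirb*. In the same comparison *Cd33* was also not called without mouse 1 (edgeR adjusted p = 0.11) or with total counts alone (edgeR adjusted p = 0.083). Groups of 3 libraries are too small for a test of single outlying samples.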

How the results depend on the processing

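With an adjusted p threshold of 0.01, 1687, 1960, 279, 1659 and 1575 genes were called in the difference against untreated, remainder against untreated, remainder against difference, difference against IL-4 and remainder against IL-4, and with a change of at least 1 in either direction on the log2 scale, 842, 917, 184, 835 and 733 were (2884, 3137, 652, 2519 and 2521 in the reported fit). Leaving out 1 mouse gave 1227 to 2114, 1388 to 3837, 101 to 1188, 1216 to 2290 and 1041 to 2490 genes, lowest without mouse 3 in all 5, and highest without mouse 2 in those that involve the remainder and without mouse 1 in the others. For the remainder against the difference, 1454 genes were called with genes kept at 1 count or more (573 higher and 881 lower, beside 356 and 296), 429 with only the 2 groups in the fit, and 0 with the columns as labelled, which share reads (edgeR, 20 of 13368 at an unadjusted p under 0.05). DESeq2 called 2847, 3142, 891, 2546 and 2600. With the mouse as a block, 2659, 2858, 556, 2343 and 2316 genes were called, and no call of a member changed.

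Over 440 values of members under alternatives, 388 kept direction and call (or, where untested, their value), 33 lost a call, 9 gained one, 2 moved and 8 turned direction. With the columns as labelled, the remainder against untreated was 0.87 for *Pilra*, 0.46 for *Pilrb1* and 0.021 for *Pilrb2*, since that column mixes both parts. *Cd33* turned to -0.11 there with total counts alone, as did *Pira2* (-0.10), and *Sirpa* with IL-4 alone was at -0.041. Leaving out 1 mouse gave -0.051 to 0.38 for *Siglece*, -0.12 to 0.27 for *Cd33* and -0.028 to 0.063 for *Pira2* in the remainder against untreated, and -0.013 to 0.085 for *Sirpa* in the remainder against the difference and -0.048 to 0.045 with IL-4 alone. Of these values, only the falls of *Pilrb1* and *Pilrb2* in the remainder were called in the reported fit. For the other turns the cause was not tested.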
